A study of Rattus norvegicus with 4 samples.

Results

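The nuclear genes of the mitochondrial respiratory chain were followed on 4 Agilent 2-colour rat arrays of spinal dorsal horn RNA. A probe belonged to the set when its accession mapped to a rat gene whose symbol starts with Nduf, Uqcr, Cox4, Cox5, Cox6, Cox7, Cox8 or Atp5, or is Sdha, Sdhb, Sdhc, Sdhd or Cycs. This took 86 of 26650 genes (111 of 30367 probes), of which 85 genes (110 probes) passed the filter that Cy5 be well above background on at least 2 arrays, against 22821 genes (26002 probes) of the whole array. The 85 genes were 32 subunits of complex I, 7 assembly factors of complex I, 4 subunits of complex II, 8 of complex III, cytochrome c, 16 genes of complex IV, Ndufa4 and 16 genes of complex V. The gene that did not pass was Cox8c, a complex IV isoform, with Cy5 above background on 1 array and Cy3 on 0.

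The respiratory chain sits in the inner mitochondrial membrane. Complexes I (NADH dehydrogenase) and II (succinate dehydrogenase) pass electrons to coenzyme Q, complex III passes them to cytochrome c, and complex IV (cytochrome c oxidase) passes them to oxygen. The protons pumped on the way drive complex V, the ATP synthase. Neurons depend heavily on this source of ATP, and platinum drugs are known to reach the mitochondria of sensory neurons.

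The rats were male and 6 weeks old. On 2 arrays the Cy5 channel held, by the labels, dorsal horn RNA of rats given oxaliplatin (day 10), and on the other 2 arrays that of rats given vehicle (day 10). On all 4 arrays the labels put RNA of untreated rats in Cy3, so the dyes were never swapped; the extract protocol mentions Cy3 labelling alone. The labels give neither the dose nor whether animals were pooled. Each group lay on a slide of its own. By the scan date in the file headers, the oxaliplatin arrays shared a scan, and the vehicle arrays differed from them and from each other. Slide, scan and group therefore cannot be told apart, and p-values measure only the spread between these samples, which may be technical.

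On each array, 316 spots belonged to the set, 0 of them saturated and 2 to 6 marked as outliers and left out. The Cy3 channel was dimmer on oxaliplatin replicate 2 (median spot signal 283.5) than on the other arrays (494 to 564). Cy5 and Cy3 RNA differed in marker genes on all 4 arrays: the 8 markers of Schwann cells and sensory ganglia were all higher in Cy5 (median log2 ratio 2.93, range 2.10 to 5.34) and the 6 oligodendrocyte markers all lower (median -1.48, range -1.66 to -0.52). Of 5 neuronal markers, 3 were higher in Cy5 and 1 lower (median 1.07, range -0.17 to 1.28), and 3 of 5 astrocyte markers were lower and 1 higher (median -1.04). With median centring in place of loess, 4 oligodendrocyte markers passed as lower (median -0.75) and all 5 neuronal markers as higher, with the Schwann cell and ganglion counts and the astrocyte counts as before. Of the other lists, 1 of 5 microglial markers was higher and 2 lower, 1 of 3 endothelial markers lower, and 1 of 2 each of brown fat and erythrocytes higher. Their part in the Cy5/Cy3 results on respiratory chain genes was not tested. In bulk RNA, fewer cells of a type and less RNA per cell cannot be told apart.

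Some motifs that the choice of genes did not use were more frequent in the set's promoters than in all promoters searched. For this reason 3 of the set's promoters are printed. RefSeq's promoter table (build GRCr8) held 74 of the 85 genes, each from 250 bases before to 50 after the gene's start, searched here on both strands. The motif of the nuclear respiratory factor NRF1 was a 10-letter core of its consensus, with any base at 1 central position. This NRF1 motif was found in 14 of the 74 promoters (18.9%) against 4.25% of all 33469 promoters in the table. The motif CCGGAAG (ETS), bound by ETS factors such as GABP, was found in 23 (31.1%) against 8.75%. For the shorter motifs CCAAT (33.8% against 37.5%) and GGGCGG (40.5% against 33.1%) the shares lay closer together. The 33469 promoters were not matched to the set in gene type or signal. Below are the last 150 bases before the start of Sdha (chr1:30764403-30764552, plus strand), of Ndufs5 (chr5:141264403-141264552, minus strand) and of Uqcrc2 (chr1:184599090-184599239, plus strand), 5′ to 3′ on the gene's strand. Capitals mark the NRF1 motif in Sdha and Ndufs5, and the ETS motif, read here on the opposite strand, in Uqcrc2.
Sdha: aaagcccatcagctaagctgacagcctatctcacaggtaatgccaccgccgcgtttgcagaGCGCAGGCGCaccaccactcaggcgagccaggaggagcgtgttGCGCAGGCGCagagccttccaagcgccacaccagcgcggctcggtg
Ndufs5: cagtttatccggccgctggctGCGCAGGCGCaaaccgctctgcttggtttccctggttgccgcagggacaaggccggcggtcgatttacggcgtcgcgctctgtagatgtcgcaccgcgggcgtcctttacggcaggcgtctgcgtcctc
Uqcrc2: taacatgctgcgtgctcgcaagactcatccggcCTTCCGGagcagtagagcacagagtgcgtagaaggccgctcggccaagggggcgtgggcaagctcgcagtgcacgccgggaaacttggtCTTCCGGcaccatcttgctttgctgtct
Among genes with a promoter in the table, the NRF1 motif was found in 6 of 27 genes higher in Cy5, 6 of 22 lower in Cy5 and 2 of 25 with no call in that comparison. For the ETS motif the split ran differently, with 8 of 27 higher, 5 of 22 lower and 10 of 25 with no call. A match is a description of letters, not a bound site.

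Oxaliplatin and vehicle were compared first in the Cy5/Cy3 ratio of each array. None of the 85 genes passed (limma, adjusted p under 0.05 over all genes), nor did any gene of the array (0 of 22821, 0%), and the smallest adjusted p in the set was 0.294. At an unadjusted p under 0.05, 10 genes differed, 1 higher and 9 lower on the oxaliplatin arrays, against a background of 14.6% of all genes (8.79% higher, 5.85% lower). The 2 groups of arrays did not overlap for 43 genes, 10 higher and 33 lower, against 49.2% of all genes, 27% higher and 22.2% lower. The median log2 difference was -0.12 over the 85 genes and 0.01 over all genes, with 57 genes below 0 and 28 above. With 1 array left out, it was -0.05 (vehicle replicate 2 left out), -0.08 (oxaliplatin replicate 2), -0.15 (oxaliplatin replicate 1) or -0.16 (vehicle replicate 1). Loess makes ratios level across signal strength; with each array only centred on its median, the set's median was -0.03 and that of all genes -0.02. The medians of some marker lists also differed between the groups of arrays, with no marker past the threshold. The 6 oligodendrocyte markers had a median ratio difference of 0.66 (range -0.07 to 0.79, 5 above 0), with a median of -0.18 in Cy5 and -0.80 in Cy3, and the 5 astrocyte markers a median of 0.42 (range -0.19 to 0.64). The 8 Schwann cell and ganglion markers had a median of -0.19, with 7 below 0, the 5 microglial markers -0.03, the 5 neuronal markers -0.03, the 11 skeletal muscle markers -0.02, the 3 endothelial markers -0.02, the 2 erythrocyte markers 0.74 and the 2 brown fat markers -0.34. With 1 array left out, the oligodendrocyte median stayed between 0.48 and 0.82. The erythrocyte median was -0.22 without oxaliplatin replicate 1, and the astrocyte median 0.10 without oxaliplatin replicate 2. Without vehicle replicate 2, the Schwann cell and ganglion median was 0.08. The part of these markers in the differences of respiratory chain genes was not tested.

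By complex, the median log2 difference in the ratio was -0.14 for complex I, -0.04 for complex II, 0.03 for complex III, -0.13 for complex IV and -0.10 for complex V. All 7 assembly factors of complex I lay below 0 (median -0.24, range -0.43 to -0.03). In complex V, 12 of 16 genes lay below 0, and in complex I 21 of 32. With median centring these medians shrank to -0.04 for complex I, -0.08 for the assembly factors (6 of 7 below 0), -0.04 for complex IV and -0.03 for complex V, and complexes II and III stood at 0.10 and 0.13. They also moved with single arrays. Without oxaliplatin replicate 2, complex IV stood at 0.02, complex III at -0.06, complex II at -0.01, complex I at -0.08, complex V at -0.05 and the assembly factors at -0.14. Without vehicle replicate 2, complex I stood at -0.06, complex II at -0.01, complex IV at -0.05, complex V at -0.03 and the assembly factors at -0.12. Without oxaliplatin replicate 1 complex III stood at 0.08, and without vehicle replicate 1 it stood at 0.05, complex V at -0.19 and complex II at -0.06.

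**Figure D1:**
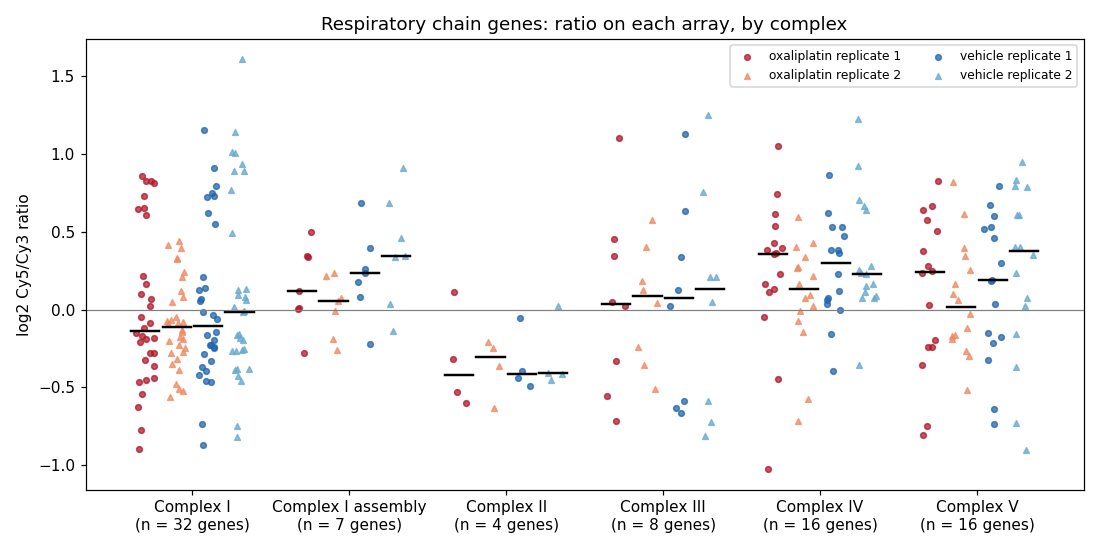
Log2 Cy5/Cy3 ratio of each respiratory chain gene (points) on each of the 4 arrays, by complex, with the median over genes as a black bar. Complex II lay lowest on all 4 arrays (medians -0.42, -0.31, -0.42 and -0.41). Over the 85 genes together, the SD was lowest on oxaliplatin replicate 2 (0.318). In complex IV it was 0.347 there and 0.321 on vehicle replicate 1.

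The largest difference was in Ndufa10, an accessory subunit of complex I. Its log2 ratio was 0.81 and 0.21 on the oxaliplatin arrays and 1.15 and 1.61 on the vehicle arrays, a difference of -0.87 ± 0.23 (SE, n = 2 against 2 arrays, adjusted p = 0.294). The groups did not overlap. It passed when the replicate numbers were crossed as a block (adjusted p = 0.0195, with 2.35% of all genes called), an alternative chosen after seeing the data. Its log2 Cy5 signal hardly moved, at 14.69 and 14.67 with oxaliplatin and 14.69 and 14.78 with vehicle. Its Cy3 signal, the RNA of untreated rats, was 13.88 and 14.46 on the oxaliplatin arrays and 13.54 and 13.17 on the vehicle arrays. In these normalised signals, the ratio difference of Ndufa10 thus lay in Cy3, the channel that the labels give to untreated rats. Before normalisation, Cy3 was dimmer on oxaliplatin replicate 2, and the part of this in the difference was not tested.

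After loess, the median over the set also differed more in Cy3 than in Cy5. In Cy5, the treated rats' RNA, the median log2 difference between oxaliplatin and vehicle was 0.01, with 45 genes above 0 and 40 below. In Cy3 it was 0.15, with 55 above and 30 below, where all genes had a median of -0.02. In neither channel did a gene of the set pass (0 of 85 each, against 0% of all genes), nor did any gene of the array. At an unadjusted p under 0.05, 11 genes differed in Cy5, 8 higher and 3 lower (background 20.5%, 10.4% higher and 10.1% lower). In Cy3, 12 differed, 11 higher and 1 lower (background 21%, 9.96% higher and 11% lower). The groups did not overlap in Cy5 for 27 genes higher and 23 lower (background 29.1% and 30.8%), and in Cy3 for 35 higher and 12 lower (background 26.5% and 31.9%). In Cy5, the shares at an unadjusted p were 12.9% in all and 3.53% lower, both below the background, and those without overlap were 31.8% higher and 27.1% lower, near it. In Cy3, 41.2% were higher and 14.1% lower without overlap, a lean toward higher signals on the oxaliplatin arrays. The Cy3 median was 0.07 without vehicle replicate 2 and 0.08 without oxaliplatin replicate 2. Complex II moved less in Cy3 (median 0.01) than in Cy5 (median -0.07). With median centring the set's ratio median was -0.03, near the -0.02 of all genes.

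**Figure D2:**
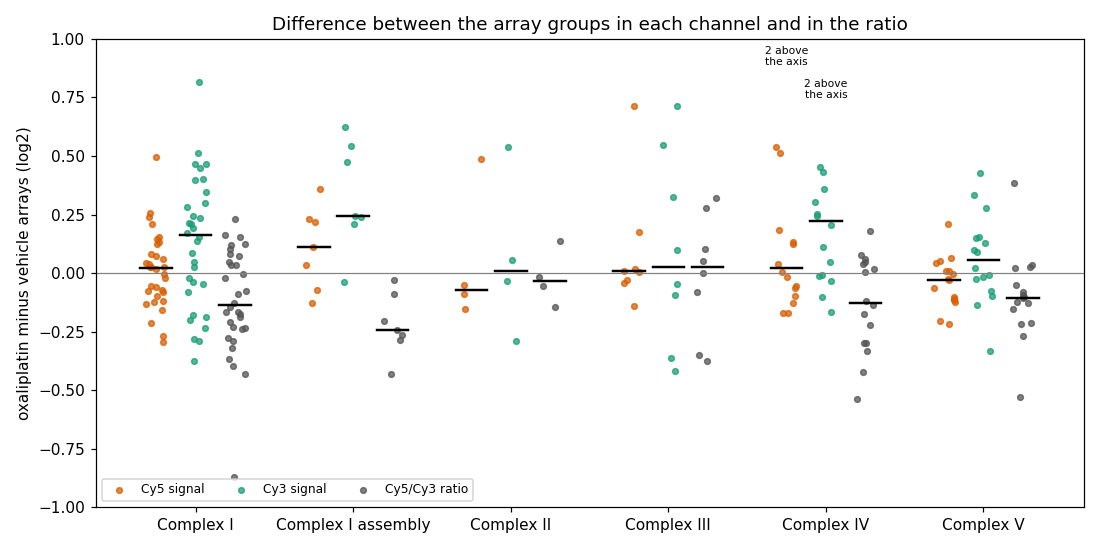
Difference between oxaliplatin and vehicle arrays (log2) of each respiratory chain gene in the Cy5 signal, the Cy3 signal and the Cy5/Cy3 ratio, by complex, with the median as a black bar. Cox7c and Cox6c-ps1 lie above the axis in both channels. The Cy3 medians lie above the Cy5 medians in each complex.

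Complex I receives electrons from NADH. Beside Ndufa10, its lowest differences in the ratio were Ndufb3 (-0.43 ± 0.19), Ndufs5 (-0.40 ± 0.15) and Ndufb8 (-0.37 ± 0.15), accessory subunits all (SE, n = 2 against 2; adjusted p 0.324 to 0.36). The highest were Ndufv1, which binds NADH, at 0.23 ± 0.12, Ndufs7, which carries an iron-sulphur cluster, at 0.16 ± 0.14, Ndufb6 at 0.16 ± 0.12 and Ndufa12 at 0.12 ± 0.11. Ndufs1, an electron-carrying subunit, differed by -0.00 ± 0.13.

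Complex II oxidises succinate and has no subunit from the mitochondrial genome. Its catalytic flavoprotein Sdha had a log2 ratio of -0.32 and -0.21 with oxaliplatin and -0.39 and -0.41 with vehicle, a difference of 0.14 ± 0.12. The iron-sulphur subunit Sdhb differed by -0.02 ± 0.12, and the membrane anchors Sdhc and Sdhd by -0.05 ± 0.15 and -0.15 ± 0.11. The adjusted p-values ran from 0.571 to 0.964. Sdhc lay higher with oxaliplatin in either dye, with a Cy5 difference of 0.49 ± 0.16 and a Cy3 difference of 0.54 ± 0.22 (adjusted p 0.221 and 0.244).

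In complex III, the core proteins lay above 0 and 3 of the small subunits below it in the ratio difference, none past the threshold. Uqcrc1 had log2 ratios of -0.33 and -0.51 with oxaliplatin and -0.67 and -0.81 with vehicle, a difference of 0.32 ± 0.13, and Uqcrc2 differed by 0.28 ± 0.14. The small subunits Uqcrb and Uqcr10 differed by -0.37 ± 0.14 and -0.35 ± 0.19, and Uqcrh by -0.08 ± 0.12. The Rieske iron-sulphur protein Uqcrfs1 differed by 0.05 ± 0.15 and Uqcr11 by 0.10 ± 0.12. The adjusted p-values of these 7 genes ran from 0.312 to 0.904. For Uqcrc1 the Cy5 difference was -0.04 and the Cy3 difference -0.36. Cycs, cytochrome c, the mobile carrier between complexes III and IV, had log2 ratios of 0.23 and 0.16 with oxaliplatin and 0.51 and 0.51 with vehicle, a difference of -0.32 ± 0.11 (adjusted p = 0.308), again with most of it in Cy3 (0.38, against 0.06 in Cy5).

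Complex IV genes with the lowest ratio differences were Cox6c-ps1 (-0.54 ± 0.15), which the reference lists as a pseudogene of Cox6c, Cox6a2 (-0.42 ± 0.17), the isoform of heart and muscle, Cox7c (-0.33 ± 0.17) and Cox7a2 (-0.30 ± 0.14). The highest were Cox4i2 (0.18 ± 0.16), the isoform linked to low oxygen, Cox4i1 (0.08 ± 0.12), its common counterpart, Cox6b2 (0.06 ± 0.13) and Cox8a (0.05 ± 0.12). The adjusted p-values of the 8 genes ran from 0.294 to 0.888. Of the other isoforms, none of which passed, Cox6a1 differed by -0.22 ± 0.19, Cox6b1 by 0.00 ± 0.12 and Cox8b by 0.04 ± 0.11. Ndufa4, once counted to complex I and now to complex IV, differed by -0.31 ± 0.17 (adjusted p = 0.443). In complex V, Atp5mk, a small membrane subunit, differed by -0.53 ± 0.16 (adjusted p = 0.3), with log2 ratios of 0.37 and -0.03 against 0.60 and 0.80. Atp5f1b, the catalytic beta subunit, had ratios of -0.75 and -0.12 with oxaliplatin and -0.74 and -0.91 with vehicle, a difference of 0.39 ± 0.21 (adjusted p = 0.434) that lay with oxaliplatin replicate 2. Atp5mc2, a subunit of the rotating ring, differed by -0.27 ± 0.17, Atp5mg by -0.21 ± 0.13, Atp5f1a, the alpha subunit, by -0.15 ± 0.13 and the inhibitor Atp5if1 by -0.11 ± 0.13. Atp5pd, Atp5f1e and Atp5f1c lay between 0.02 and 0.03. Without oxaliplatin replicate 1, 3 genes of the set passed, Ndufa10, Atp5mk and Atp5f1b, as did 4.11% of all genes; that fit leaves oxaliplatin replicate 2 alone in its group and assumes that it varies like the vehicle arrays.

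Oxaliplatin replicate 2 had the narrowest ratios. The SD of the log2 ratio over the 85 genes was 0.318 on that array against 0.464 to 0.550 on the others, and over all genes 0.488 against 0.542 to 0.600. Genes with a high mean ratio tended to have a negative difference: over the 85 genes the correlation of difference and mean ratio was -0.547 (all genes -0.257), a description across genes that share the same 4 arrays. Its sign follows from narrower ratios in the oxaliplatin group, so it is not a further result beside the SDs. The part of the dim Cy3 channel of oxaliplatin replicate 2 in the ratio differences was not tested.

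A few genes differed strongly between arrays in both channels at once. Cox7c, a small subunit of complex IV, had log2 Cy5 signals of 13.29 and 13.14 with oxaliplatin and 12.31 and 9.86 with vehicle. Its Cy3 signals followed, at 12.91 and 13.12 against 11.94 and 9.15. The groups did not overlap, but the vehicle arrays stood further from each other than vehicle replicate 1 from the oxaliplatin arrays, and the differences of 2.13 ± 0.85 (Cy5) and 2.47 ± 0.84 (Cy3) did not pass (adjusted p 0.258 and 0.202). Cox6c-ps1 was likewise higher on the oxaliplatin arrays and lowest on vehicle replicate 2. It had 12.59 and 12.77 against 11.44 and 8.81 in Cy5 and 13.03 and 13.48 against 11.60 and 8.74 in Cy3. Its second probe reached at most 8.68 in Cy5 and 8.62 in Cy3 on any array, and was not lowest on vehicle replicate 2. Cox6c itself ranged from 16.16 to 16.40 in Cy5 and from 15.71 to 16.02 in Cy3.

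Uqcrq, a small subunit of complex III, had higher signals with oxaliplatin in either dye, with 9.92 and 9.88 against 9.33 and 9.04 in Cy5 and 9.87 and 9.76 against 9.21 and 8.99 in Cy3. Its difference was 0.71 ± 0.12 in Cy5 (adjusted p = 0.15) and 0.71 ± 0.16 in Cy3 (adjusted p = 0.167), and 0.00 ± 0.11 in the ratio. In all, 2 of 85 genes (2.35%), Cox7c and Cox6c-ps1, were higher by over 1 log2 unit in both channels, against 2.39% of all genes. Since Cy3 held untreated RNA by the labels, a difference of equal size in both channels cannot be told apart from one between slides or single arrays. The vehicle arrays shared a slide, and Cox6c-ps1 had log2 Cy5 signals of 11.44 and 8.81 on them. Leaving out vehicle replicate 1 brought 16 genes of the set past the threshold in Cy5 (23.5% of all genes passed) and 3 in Cy3 (8.6%). Leaving out vehicle replicate 2 brought 2 past it in Cy5, Cox7c and Cox6c-ps1 (2.63%).

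**Figure D3:**
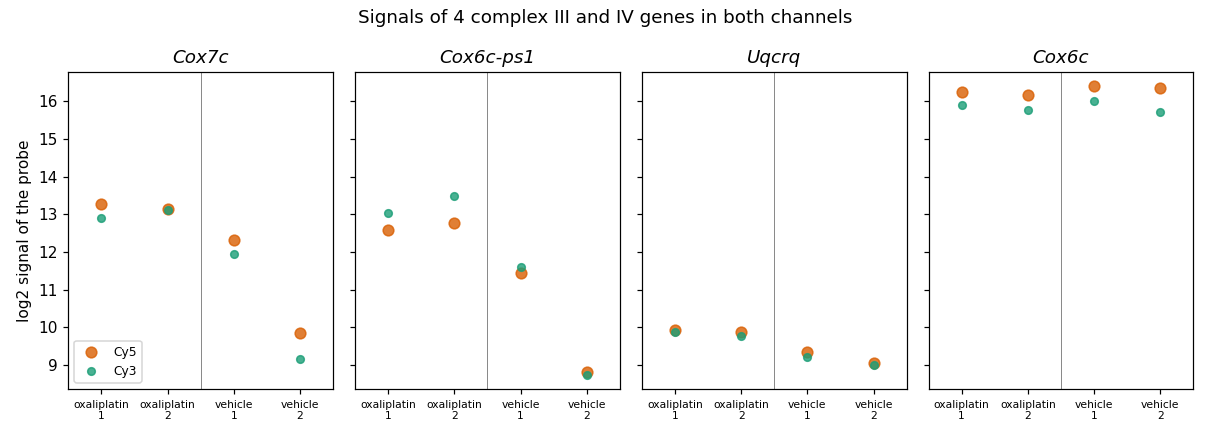
Log2 signals of Cox7c, Cox6c-ps1, Uqcrq and Cox6c in Cy5 (large points) and Cy3 (small points) on each array, 1 point per array and channel. Cox7c and Cox6c-ps1 lay lowest in both channels on vehicle replicate 2, while Cox6c stayed between 15.71 and 16.40.

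The second comparison asked whether Cy5 and Cy3 RNA differed on the same arrays, by the mean log2 ratio of the 4 arrays against 0. Here 60 of 85 genes passed (limma, adjusted p under 0.05), 33 higher and 27 lower in Cy5, a share of 70.6% against 55.6% of all genes (38.8% against 29.3% higher, 31.8% against 26.3% lower). Leaving out 1 array at a time gave 48 to 62 genes, with 28 to 36 higher and 18 to 26 lower. The median ratio was 0.09 over the set and 0.03 over all genes. The directions depended on the normalisation: these probes were bright, with median log2 Cy5 signals of 14.97 to 15.02 per array against 9.49 to 9.58 over all genes, and with median centring in place of loess 67 genes passed, 66 higher and 1 lower (98.5% higher, against 55.1% of all called genes). The median of the set was then 0.69 and that of all genes 0.01. The order of the genes moved less (Spearman's rho 0.910 over the 85 genes between both normalisations, a description). As no dyes were swapped, a dye effect and a difference in RNA cannot be told apart in these values.

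Under loess, called genes of the same complex went in both directions, except in complex II. The genes called higher in Cy5 were brighter in both dyes, with median log2 signals per array of 15.79 to 15.86 in Cy5 and 15.07 to 15.60 in Cy3. Genes called lower had 14.21 to 14.29 in Cy5 and 14.49 to 14.85 in Cy3. The part of signal strength in these directions was not tested. In complex I, 8 genes were higher and 14 lower in Cy5 (25 and 0 with median centring; 8 and 8 without vehicle replicate 1). The higher genes named by the smallest p were Ndufv3 (0.67 ± 0.07, SE, n = 4 arrays, adjusted p = 0.000325), Ndufa1 (0.75 ± 0.09, adjusted p = 0.000457) and Ndufb3 (0.81 ± 0.10, adjusted p = 0.000582), all accessory subunits. The lower genes so named were Ndufs7 (-0.70 ± 0.07), Ndufa10l1 (-0.76 ± 0.08) and Ndufb5 (-0.51 ± 0.06). Ndufs7 had ratios of -0.77, -0.48, -0.74 and -0.82 on the 4 arrays, and Ndufa1 of 0.83, 0.44, 0.73 and 1.01, so neither changed sign between arrays.

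Of the electron-carrying subunits in the fixed list, Ndufs1 (-0.20 ± 0.07, adjusted p = 0.0402) and Ndufv1 (-0.29 ± 0.06, adjusted p = 0.00746) were lower in Cy5, and both turned to above 0 with median centring (0.31 and 0.37). In complex II, Sdha (-0.33 ± 0.06), Sdhb (-0.44 ± 0.06) and Sdhd (-0.55 ± 0.06) were lower in Cy5 and Sdhc was not (-0.04 ± 0.07, adjusted p = 0.646); the median was -0.38, and 0.18 with median centring. Complex II had the lowest median of the 5 complexes under both normalisations, which was not tested.

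In complex III, the small subunits Uqcr10 (1.02 ± 0.09, adjusted p = 0.000187), Uqcrb (0.51 ± 0.07) and Uqcr11 (0.32 ± 0.06) were higher in Cy5. The core proteins Uqcrc1 (-0.58 ± 0.06, adjusted p = 0.000408) and Uqcrc2 (-0.54 ± 0.07) and the Rieske protein Uqcrfs1 (-0.56 ± 0.07) were lower. With median centring the small subunits lay at 1.09 to 1.86 and these 3 between -0.18 and 0.05, so the separation kept its order. Cytochrome c (Cycs) was higher in Cy5 by its brightest probe (0.35 ± 0.06). Cyc1, the haem protein of complex III, which the symbol rule leaves out, was also higher (0.24 ± 0.07, adjusted p = 0.0322), with log2 ratios of 0.21 and -0.05 on the oxaliplatin arrays and 0.27 and 0.52 on the vehicle arrays. This call was lost with the scanner software's ratio (0.23), without oxaliplatin replicate 1 (0.17) and without vehicle replicate 2 (0.17).

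Complex IV had 9 genes higher and 2 lower in Cy5 (13 and 1 with median centring). Those named by the smallest p were Cox6a1 (0.93 ± 0.10, adjusted p = 0.000313), Cox7a2l (0.62 ± 0.08), which joins complexes III and IV into supercomplexes, and Cox6c (0.44 ± 0.07). The lower genes were Cox6a2 (-0.59 ± 0.08, adjusted p = 0.0012) and Cox6c-ps1 (-0.31 ± 0.07). Cox6a2 was the gene that stayed lower with median centring (-0.37). Its log2 ratio was -1.03, -0.57, -0.39 and -0.36 on the 4 arrays. Of 11 skeletal muscle markers, 6 were higher and 2 lower in Cy5 (median 0.21), or 4 higher and 3 lower with median centring; their part in the ratio of Cox6a2 was not tested. Of the isoform pairs, Cox4i1 was at 0.21 ± 0.06 and Cox4i2 at 0.50 ± 0.08, Cox6b1 at 0.08 ± 0.06 (adjusted p = 0.321) and Cox6b2 at 0.30 ± 0.07, and Cox8a at 0.27 ± 0.06 and Cox8b at 0.09 ± 0.06 (adjusted p = 0.195). Cox7a2 was at 0.45 ± 0.07 and Ndufa4 at 0.47 ± 0.09. Cox7b did not pass (-0.01 ± 0.06).

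In complex V, 8 genes were higher and 4 lower in Cy5 (14 and 0 with median centring). Atp5me (0.85 ± 0.06, adjusted p = 6.12e-05) and Atp5mg (0.62 ± 0.07), small membrane subunits, Atp5f1e (0.58 ± 0.06), the epsilon subunit, and the inhibitor Atp5if1 (0.48 ± 0.06) were higher. Atp5f1c (-0.67 ± 0.07), the central stalk, Atp5f1b (-0.63 ± 0.11) and the peripheral stalk subunit Atp5pd (-0.33 ± 0.06) were lower, and Atp5f1a was not called (-0.11 ± 0.06, adjusted p = 0.168). With median centring Atp5f1c (-0.14) and Atp5f1b (-0.17) no longer passed and Atp5pd turned to 0.43.

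**Figure D4:**
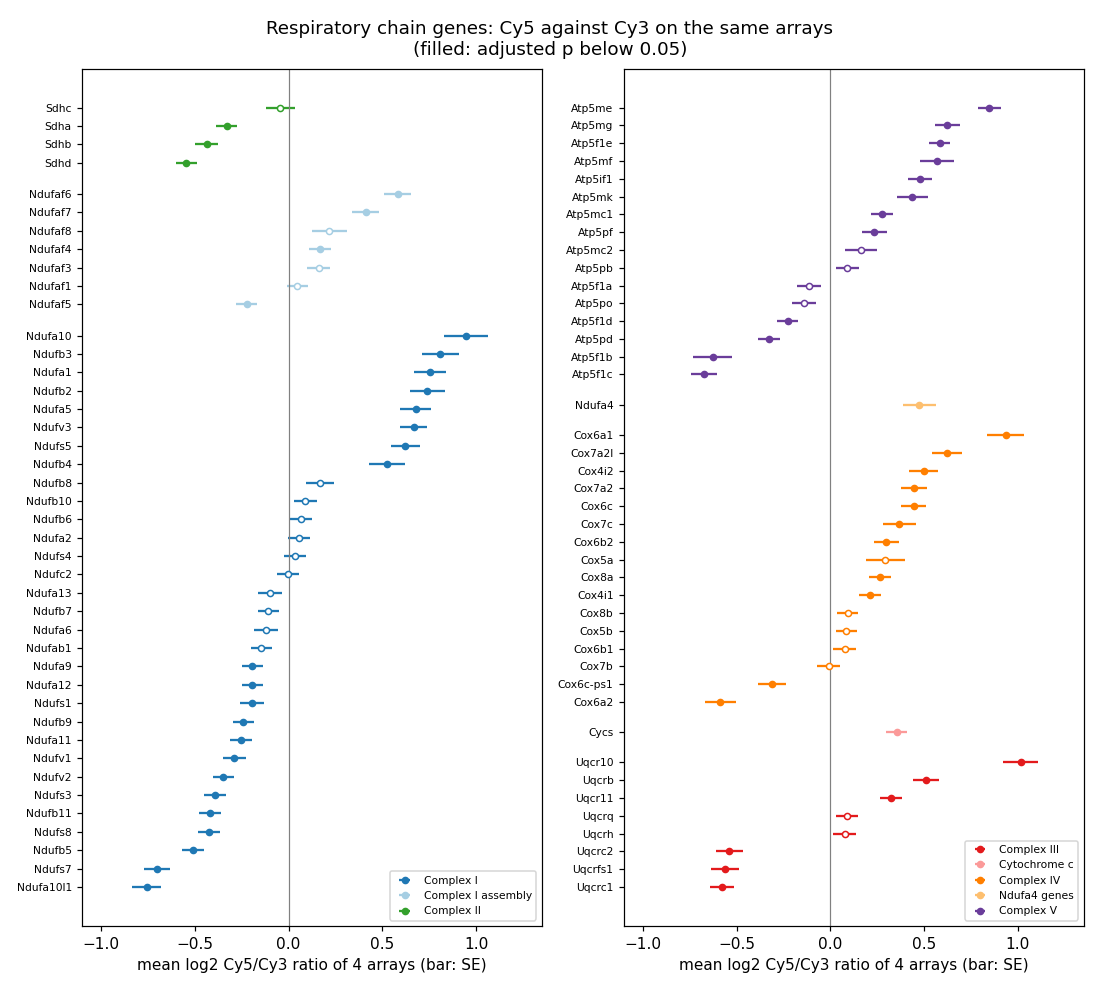
Mean log2 Cy5/Cy3 ratio of the 4 arrays with its standard error for the genes of the set whose values are reported, after loess, sorted within complexes; filled points passed at an adjusted p under 0.05. Complex II lies below 0, complex III splits into genes at 0.08 and above and genes at -0.54 and below, and Cox6a1 and Uqcr10 lie highest in their complexes.

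Probes of the same gene did not always share a direction. Of the 85 genes, 20 had several kept probes, and for 10 of them (50%) the probes' mean ratios had opposite signs, against 35.2% of 2884 genes on the array with several probes. For 7 of 20 (35%) a probe that passed higher stood against one that passed lower, against 7.80% of the 2884. On the level of probes, 76 of 110 passed, against 55% of all probes. The widest gap, 1.00 log2 units, was in Ndufs5, an accessory subunit of complex I whose promoter is printed above. Its brightest probe had ratios of 0.61, 0.24, 0.75 and 0.89 on the 4 arrays (mean 0.62 ± 0.08), and the other probe of -0.44, -0.42, -0.37 and -0.29 (mean -0.38 ± 0.06). Every array of the first was above 0 and every array of the second below. For Cycs the brightest probe was at 0.35 and the other at -0.40 ± 0.07, and the mean over both was -0.02. The other 5 genes of this kind were Ndufv3, Ndufb4, Ndufaf4, Ndufaf7 and Atp5f1d, named after their values were seen. For such genes the direction in the second comparison depends on the probe that stands for them. The other probe of Atp5f1d was dim, with log2 Cy5 signals of 7.73 to 8.33 against 14.39 to 14.75 for the brightest. In the difference between oxaliplatin and vehicle, the probes of 9 of the 20 genes had opposite signs (45%, against 44.8% on the array). The other probe of Atp5mc2 differed by 0.04 ± 0.12, that of Cycs by -0.01 ± 0.14 and that of Ndufs5 by -0.10 ± 0.11.

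**Figure D5:**
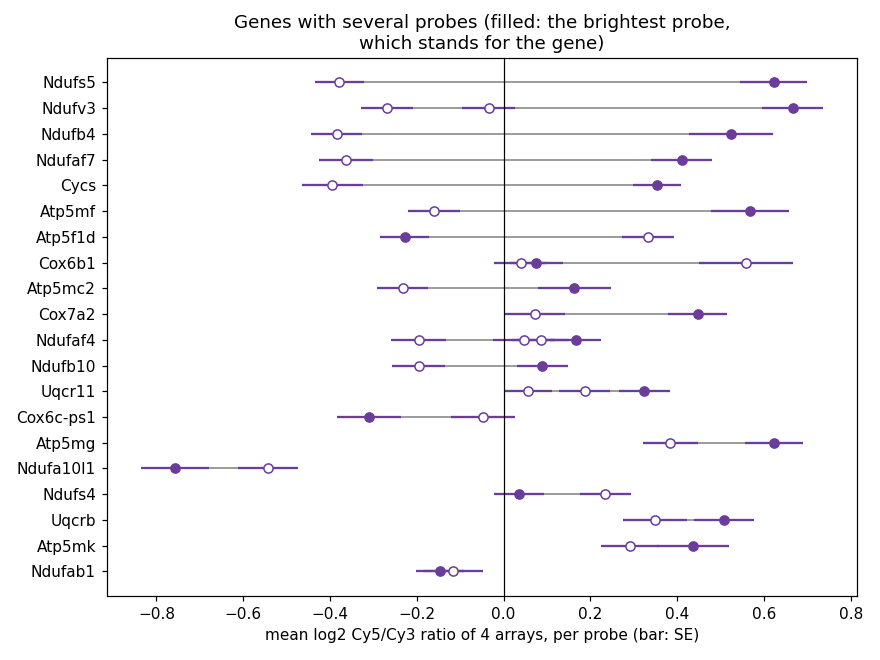
Mean log2 Cy5/Cy3 ratio of the 4 arrays with its standard error for each probe of the 20 genes with several kept probes, sorted by the gap between a gene's probes; filled points are the brightest probe. The gap reaches 1.00 in Ndufs5, whose probes lie on opposite sides of 0.

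Genes of the pathway outside the symbol rule were taken from a list of 95, of which 73 were measured. In the ratio difference between oxaliplatin and vehicle, 0 passed, with 11 higher and 5 lower at an unadjusted p under 0.05 (background 8.79% and 5.85%), and a median of -0.01. The 13 citric acid cycle enzymes had a median of 0.17 (0.23 with median centring, 0.05 without oxaliplatin replicate 2), where the chain's was -0.12, with 4 at an unadjusted p under 0.05, among them Idh3a (0.56 ± 0.12), Mdh2 (0.52 ± 0.17) and Ogdh (0.48 ± 0.13), adjusted p 0.294 to 0.307. Over the 13 enzymes the median difference was below 0 in either dye, at -0.10 in Cy5 (8 below 0) and -0.27 in Cy3 (10 below 0). Across Cy5 and Cy3, where 29.3% of all genes were higher and 26.3% lower, 10 of the 13 were lower in Cy5 and 1, Suclg1, was higher. With median centring 2 were lower and 5 higher, and with the scanner software's ratio 9 were lower and 0 higher. Of 30 other assembly factors, 5 were higher and 7 lower in Cy5, and of 13 regulators 4 were higher and 4 lower. Of these 13, NRF1's own gene, Nrf1, lay highest (0.57 ± 0.06), and Esrra, a nuclear receptor that drives mitochondrial genes, lowest (-0.51 ± 0.06). Both fall outside the naming rule, and the median of the 13 was -0.01. With median centring, 15 assembly factors were higher and 4 lower, and 6 regulators higher and 1 lower. Of 7 carriers of the inner and outer membrane, 4 were higher and 1 lower, and of 9 enzymes of coenzyme Q synthesis 2 were higher and 3 lower (6 and 0, and 4 and 1, with median centring). The 13 genes of the mitochondrial genome, and Cox7a1 and Ndufa4l2, were not analysed here.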

How the data were processed

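Per the file headers, the deposited scanner files give, for either dye, a spot's median intensity and that of the background around it, and the log10 ratio of Cy5 over Cy3. The authors' deposited value table repeats those log10 ratios (largest gap 0.0050). Agilent Feature Extraction made the scanner files, in version 10.7.1.1 by the headers and 8.5.1.1 by the submitters' processing notes. Other values, the scanner software's flags, are per the file headers.

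Signals were corrected with normexp (offset 50) and log2 ratios normalised by loess within arrays (limma 3.58.1, R 4.3.3), with control spots at weight 0 and outlier spots left out. Single channels were normalised by Aquantile. Probes were named by matching their accession, without version, to RefSeq's rat genes, and a gene's brightest kept probe stood for it. The 4 arrays entered each fit (lmFit and eBayes, two-sided, residual df 2), with Benjamini-Hochberg adjustment over 22821 genes. A script tested on simulated data was used. Replicate numbers did not pair the samples (correlation of deviations -0.222 in the ratio).

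Up to 4 genes per complex and direction were named by the smallest unadjusted p in the difference, up to 3 in the mean ratio, beside a fixed list. Uqcrq and the single genes named from the pathway list fell outside this rule, and others outside it are marked. The values of 2 genes are not reported here. The members and lists were chosen with earlier results of these data known. The alternatives are given with the closing observations.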

Additional observations from a re-analysis of the deposited data

How the results depend on the processing

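Every fit gave 0 respiratory chain genes in the ratio difference between oxaliplatin and vehicle, and in the same difference of Cy5 and of Cy3, except where named here. Leaving out 1 array at a time gave 0 to 3 genes in the ratio (3 without oxaliplatin replicate 1), 0 to 16 in Cy5 (16 without vehicle replicate 1, 2 without vehicle replicate 2) and 0 to 3 in Cy3 (3 without vehicle replicate 1). The replicate block gave 0 genes in all 3. The same-numbered arrays deviated against each other in the ratio (-0.222) and in Cy3 (-0.206), so the numbers were also crossed, an alternative chosen after seeing the data, which gave 1 gene in the ratio, Ndufa10. The scan as a random block, also added later, could not be fitted.

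Median centring in place of loess moved the set's median difference from -0.12 to -0.0264, its median mean ratio from 0.09 to 0.6859, the genes higher in Cy5 from 33 to 66 and the genes lower from 27 to 1. The mean ratio turned sign with it in Ndufb5 (0.164), Ndufs1 (0.3115), Ndufv1 (0.3656), Sdha (0.242), Sdhb (0.122), Sdhc (0.478), Sdhd (0.110), Uqcrc2 (0.0455), Uqcrfs1 (0.0292), Cox7b (0.726), Atp5pd (0.430) and Atp5f1a (0.808). With the mean over a gene's probes, the mean ratio of Cycs turned to -0.0209. None of the ratio differences that follow passed before or after its sign turned. With median centring, Sdhb (0.0700), Sdhc (0.136), Ndufs1 (0.1385) and Uqcrh (0.0044) turned to above 0 and Cox8b (-0.0842) to below. With the scanner software's ratio, Sdhb (0.0033), Ndufs1 (0.0472) and Atp5f1c (-0.00090) turned. With ratios scaled between arrays, Uqcrfs1 (-0.0175), Atp5pd (-0.0134) and Atp5f1c (-0.0639) turned, and with the mean over probes Cox6b1 (-0.189). Leaving out 1 array at a time gave -0.234 to 0.127 for Sdhc, -0.100 to 0.066 for Sdhb, -0.131 to 0.232 for Uqcrfs1, -0.176 to 0.011 for Uqcrh, -0.052 to 0.176 for Cox6b2, -0.028 to 0.119 for Cox8a, -0.014 to 0.079 for Atp5pd, -0.017 to 0.061 for Atp5f1e, -0.117 to 0.17 for Atp5f1c, -0.13 to 0.124 for Ndufs1, -0.449 to 0.0047 for Cox6a1 and -0.086 to 0.091 for Cox6b1. For the mean ratio it gave -0.051 to 0.034 for Cox7b and -0.134 to 0.047 for Sdhc. The cause of these turns was not tested.

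The 2 arrays in each group limit the precision, and among the members signal over background kept out the dim probe of Cox8c alone.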
